A study of Mus musculus with 15 samples.

Results

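Trbv29, listed in the files as TCRBV29-01, is the V gene of the mouse T cell receptor (TCR) β locus that codes for the Vβ7 domain, and it was 1 of 35 V genes found in 15 TCRβ repertoires. It was selected on its share of productive TCRs, which was higher in the tumor-draining lymph node (TdLN) than in the tumors of the same samples, so that these tissue shares are given as a description without a test. All rows assigned to this V gene were taken, and rearrangements in frame without a stop codon (productive) were kept apart from the others. In all, 1179 of 29992 listed rearrangements used Trbv29, of which 897 were productive. The TdLN held 774 of the productive ones, tumor 1 held 55 and tumor 2 held 68.

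The samples came from 5 untreated female C57BL/6 mice, bought at 6 weeks of age. B16F10GP cells, a lentivirally transduced B16F10 melanoma line that carries the glycoprotein of LCMV Armstrong and the fluorescent protein ZsGreen1, were injected into the right flank on day 0 (tumor 1) and into the left flank on day 3 (tumor 2), and tissues were taken on day 19. The paper states that the TdLN studied was that of the tumor 1 side. Tumor 2 lay on the opposite flank. From the TdLN and both tumors, CD8+ T cells positive for PD-1 and CD44 were isolated by flow sorting. Their rearranged TCRβ genes were amplified from genomic DNA by the immunoSEQ assay, which reports each distinct 87-base rearrangement with an estimated number of template molecules. Each tissue had 5 samples, with 4909 to 13848 templates per sample for the TdLN, 5382 to 7946 for tumor 1 and 338 to 5401 for tumor 2.

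A TCRβ chain is built when a developing T cell joins a V, a D and a J gene, trims their ends and adds untemplated (N) bases. The join codes for the CDR3, the loop that lies over the peptide. A join in the wrong reading frame makes no protein and is carried along in cells whose other allele is productive, so the out-of-frame rearrangements of a V gene record how often it was joined before any selection on the receptor. Vβ7 is known for its reactivity with some viral superantigens of other mouse strains.

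GENCODE M21 places Trbv29 on the plus strand at chr6:41271394-41271881 (GRCm38, the assembly also called mm10), with its V domain in exon 2 at chr6:41271587-41271881. It lies between Trbv26 and Trbv30, and its end is 261320 bases before Trbd1. GENCODE lists it as a TCR V gene, whereas RefSeq lists it as a V segment pseudogene. Its germline end is shown because every junction below starts from it. Capitals mark the 17 bases that code for the start of the CDR3, and the 39 lower-case bases after them are the recombination signal side. The whole stretch shown lies at chr6:41271822-41271920.

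Trbv29 germline end: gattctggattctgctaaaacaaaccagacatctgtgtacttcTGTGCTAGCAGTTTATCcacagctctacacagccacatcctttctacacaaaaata

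The first bases after the exon, cacagct, differed at 2 positions from the consensus heptamer of the recombination signal, cacagtg. Of the 35 V genes found, 8 (22.9%) had cacagtg directly after their annotated end on their own strand. The V part before the CDR3 was identical to this genome sequence in 1050 of the 1111 distinct Trbv29 rearrangements.

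Samples of different mice shared rearrangements, which bears on the tumor values below. Tumor 2 of mouse 1 held 143 unique productive TCRs that were also found in tumor 2 of mouse 2, which was 43.2% of its own. In tumor 2 of mouse 3, 78 of 194 unique productive TCRs (40.2%) were found in other mice and only 6 (3.09%) in the TdLN or tumor 1 labelled as the same mouse, so that this sample resembled tumor 2 of mice 1 and 2 more than its own mouse. Tumor 2 of mice 1 and 2 also shared more with other mice (57.1% and 45.3%) than with their own (30.8% and 38.1%). Of 180 ordered pairs of samples from different mice, 17 shared over 5%, against a median of 0.273%. Rearrangements found in another mouse made up 66.0% ± 34.2 (SD, n = 5) of all productive templates in tumor 1, 72.6% ± 34.7 in tumor 2 and 13.0% ± 15.1 in the TdLN. For Trbv29 alone the same shares were lower, 22.9% ± 20.1 in tumor 1, 47.1% ± 39.3 in tumor 2 and 3.95% ± 3.72 in the TdLN. Template shares by tissue, mean clone sizes in the tumors and node-tumor sharing by templates are given with and without these rearrangements. Other values count all rearrangements unless stated.

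Trbv29 made up a middle-sized part of the TdLN repertoire. Its share of unique productive TCRs in the TdLN was 6.01%, 5.89%, 6.28%, 4.81% and 4.22% in mice 1 to 5, and it ranked between 4th and 12th among the V genes of a sample. In tumor 1 the shares were 4.08%, 4.45%, 1.65%, 3.28% and 5.06%. In tumor 2 they were 4.83%, 4.70%, 2.06%, 2% and 5.42%. The means were 5.44% ± 0.885, 3.70% ± 1.32 and 3.80% ± 1.64 for the TdLN, tumor 1 and tumor 2, with the TdLN highest. Without mouse 3 the mean difference from the TdLN was -1.01 points for tumor 1 and -0.993 for tumor 2, against -1.74 and -1.64 with all mice. In mice 4 and 5 alone the differences were -0.343 and -0.799. The ranges overlapped, and mouse 5 had a higher share in both tumors than in its TdLN. These shares rest on few TCRs in the tumors, for example 3 of 182 in tumor 1 of mouse 3 (95% Wilson interval 0.562% to 4.73%) and 4 of 194 in tumor 2 of mouse 3 (0.805% to 5.18%). Intervals cover counting error only, as templates are PCR estimates.

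Weighted by templates, the tissues lay further apart. Trbv29 held 5.21%, 5.13%, 4.06%, 4.24% and 4.01% of the productive templates in the TdLN of mice 1 to 5. In tumor 1 it held 0.961%, 1.86%, 0.176%, 0.396% and 3.11%. In tumor 2 it held 0.931%, 1.16%, 1.76%, 0.420% and 2.13%. The TdLN and tumor ranges did not overlap, with means of 4.53% ± 0.592, 1.30% ± 1.20 and 1.28% ± 0.676. Once rearrangements found in another mouse were left out, the means of the TdLN, tumor 1 and tumor 2 were 5.20% ± 1.52, 3.97% ± 3.21 and 2.77% ± 1.17. Without mouse 3, tumor 2 averaged 1.16% ± 0.716 of all productive templates (n = 4). With the shared rearrangements left out, tumor 1 was lower than the TdLN in 4 of 5 mice and the ranges overlapped, with mouse 2 at 7.72% in tumor 1 against 5.87% in the TdLN. Leaving out instead the largest Trbv29 clone of each sample gave 4.24% ± 0.442, 0.672% ± 0.521 and 0.750% ± 0.767 for the TdLN, tumor 1 and tumor 2. Fewer clones and smaller clones cannot be told apart in a template share.

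**Figure D1:**
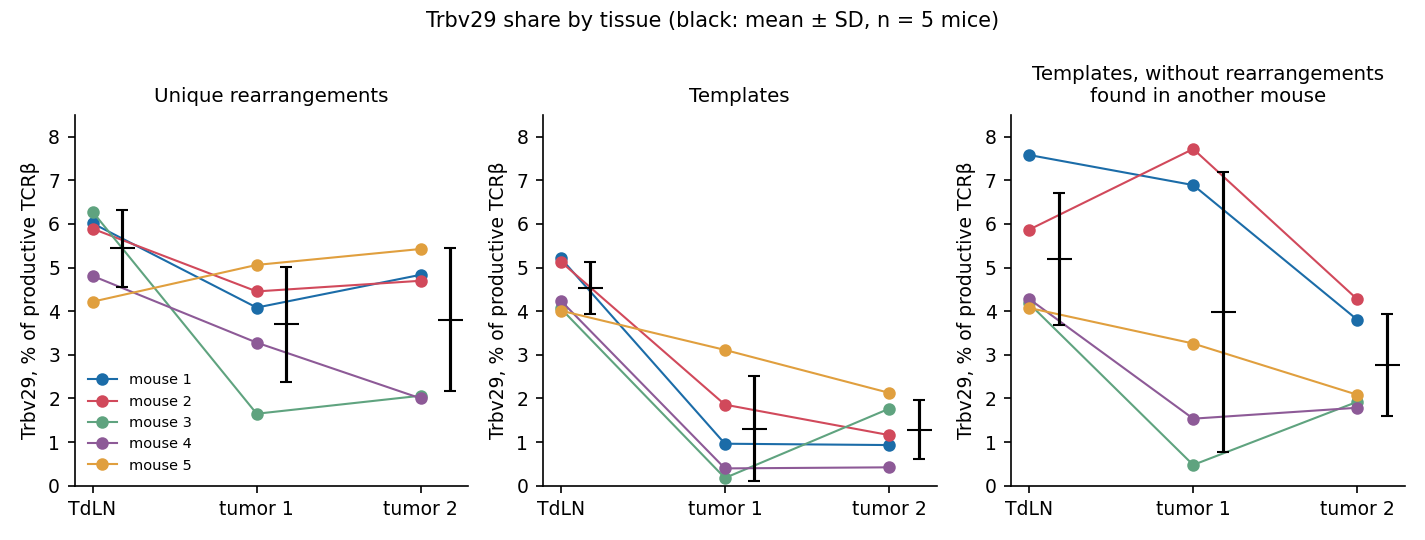
Trbv29 as a percentage of productive TCRs in the TdLN, tumor 1 and tumor 2, counted by unique rearrangements (left), by templates (middle) and by templates without rearrangements found in another mouse (right). Points joined by a line are samples of 1 mouse and black marks give the mean ± SD of 5 mice; the template shares of TdLN and tumors are separate in the middle panel and overlap in the right one.

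Trbv29 clones had fewer templates than those of other V genes in the tumors when all rearrangements were counted, and without those found in another mouse this turned in 2 of 5 tumor 1 samples. It is again a description since tumor template counts were in view when the gene was chosen. A productive Trbv29 TCR had a mean of 5.90, 6, 2.33, 1.75 and 6.59 templates in tumor 1 of mice 1 to 5, and a TCR with another V gene had 25.9, 14.8, 22.2, 14.9 and 10.9. The Trbv29 value was lower in each mouse and the ranges did not overlap (4.51 ± 2.28 against 17.7 ± 6.09, SD, n = 5). In tumor 2 the means were 4.81 ± 6.83 and 10.2 ± 6.50, and those of the TdLN were 1.80 ± 0.425 and 2.22 ± 0.724, with overlapping ranges. Without rearrangements found in another mouse, the tumor 1 means were 4.13, 4.8, 2.33, 1.36 and 7.20 templates for Trbv29 and 2.37, 2.80, 8.62, 3.06 and 11.8 for the other V genes. Trbv29 was then higher in mice 1 and 2, and the ranges overlapped (3.96 ± 2.27 against 5.73 ± 4.24). In tumor 2 the means became 1.57 ± 0.578 and 2.31 ± 0.751, with Trbv29 higher in mouse 3. With all rearrangements counted, 30 of the 55 Trbv29 TCRs of tumor 1 had a single template and 8 had 10 or more. Among the 8, those of 14 and 12 templates in mouse 1 and of 18 and 11 in mouse 2 were also found in another mouse. In tumor 2, 45 of 68 were single and 1 had 10 or more. That clone, with 62 templates in mouse 3, was also found in another mouse. In the TdLN, 512 of 774 were single and 7 had 10 or more. The mean single-template share per sample in tumor 1 was 56.6% ± 14.4 for Trbv29 and 48.1% ± 5.08 for other V genes. It was 68.9% ± 19.3 and 52.2% ± 7.73 in tumor 2, and 62.8% ± 8.66 and 61.6% ± 6.39 in the TdLN. No share of clones with 10 or more templates is given here for other V genes. The largest Trbv29 clone held 46.5% ± 19.2 of the Trbv29 templates of a tumor 1 sample.

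**Figure D2:**
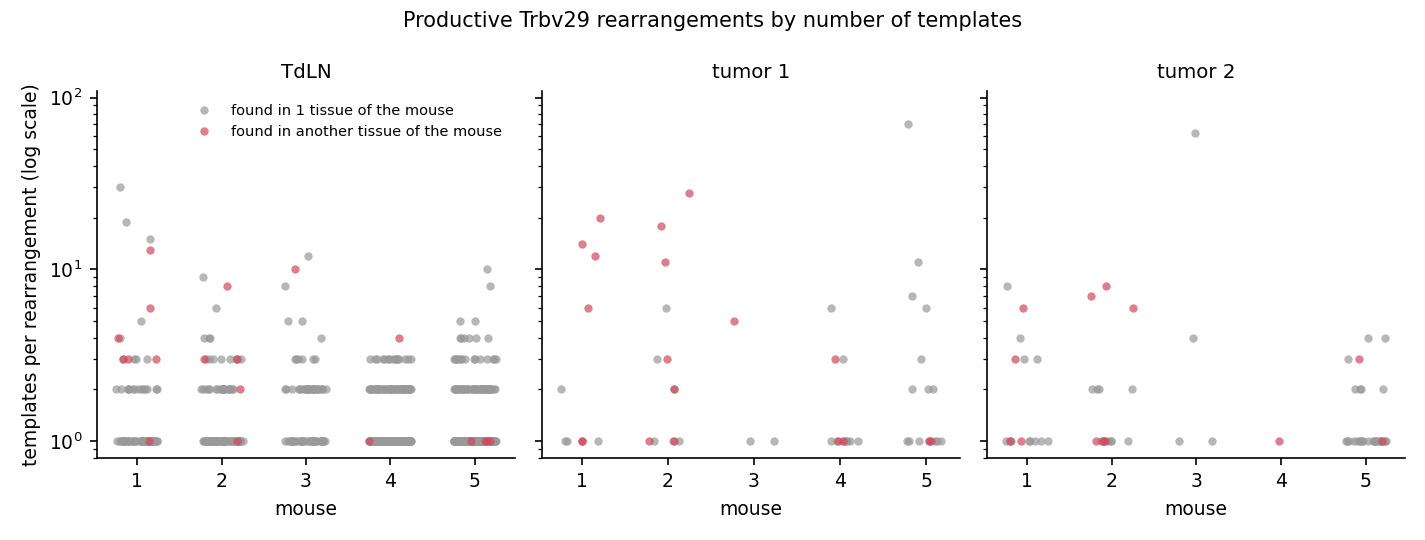
Templates of each productive Trbv29 rearrangement (log scale) by mouse in the TdLN, tumor 1 and tumor 2. Red points were also found in another tissue of the same mouse; the 2 largest clones, with 70 templates in tumor 1 of mouse 5 and 62 in tumor 2 of mouse 3, are grey.

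The V gene share of productive TCRs was then compared with that of out-of-frame rearrangements in the same TdLN samples, which is a description for Trbv29, since its productive TdLN share is a value that chose the gene. No p is therefore given for it. Trbv29 made up 6.01%, 5.89%, 6.28%, 4.81% and 4.22% of productive against 2.65%, 3.36%, 3.20%, 2.41% and 2.08% of out-of-frame rearrangements in mice 1 to 5. The productive share was higher in 5 of 5 mice and the ranges did not overlap. The means were 5.44% ± 0.885 and 2.74% ± 0.537, a difference of 2.70 percentage points. In the two-sided exact permutation test run over 20 V genes, 11 had an adjusted p under 0.05 (55%), of which 6 were higher in frame. Trbv29 is counted in the 11 and in the 6, but its own call is no support, since its share chose the gene. Also among the 6 were Trbv13-2 (2.07 points) and Trbv13-3 (1.95 points), genes for Vβ8 domains. Trbv24 fell by 3.16 points in frame, from 4.26% ± 0.573 out of frame to 1.11% ± 0.0660.

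The difference was 2.99 points in mice 1 to 3 and 2.27 in mice 4 and 5. The TdLN samples of mice 4 and 5 held 8726 and 9099 productive templates, against 3253 to 3940 in mice 1 to 3. Weighted by templates it was 1.64 points, and among rearrangements with at least 2 templates it was 2.08 points. Without mouse 2, 4 or 5 the exact permutation test called 0 of the 20 V genes, with 10 at an unadjusted p under 0.05 in each case. With the mouse as a replicate block it called 0, since a sign-flip test of 5 mice cannot go below 0.0625.

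**Figure D3:**
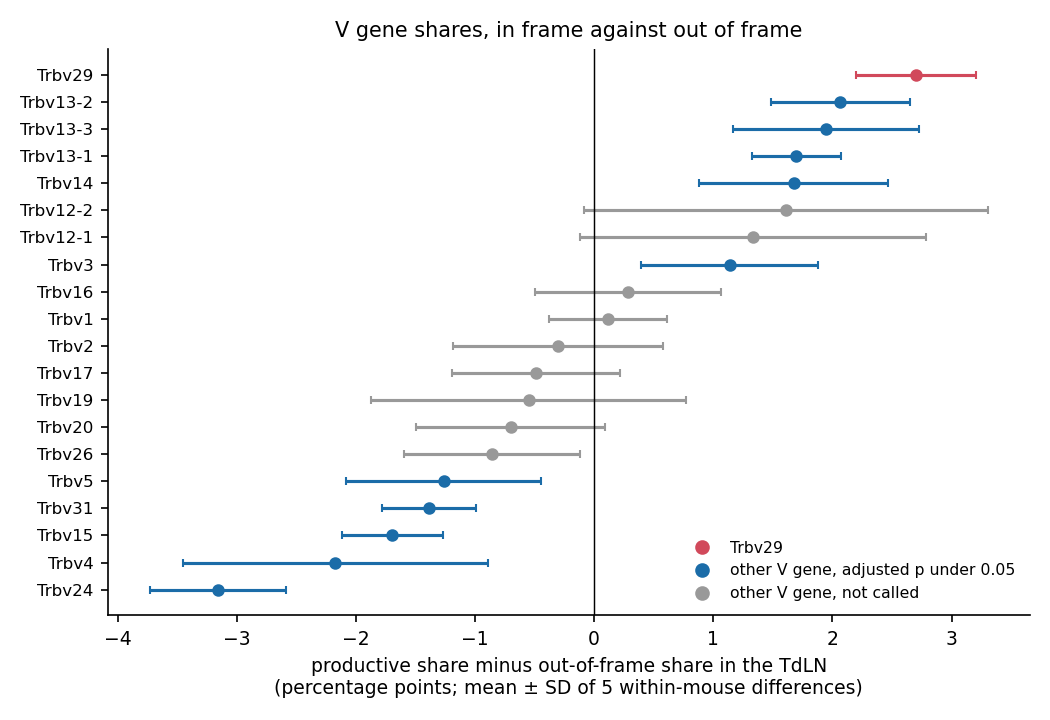
Productive minus out-of-frame share of each of 20 V genes in the TdLN, in percentage points, as the mean ± SD of 5 within-mouse differences. Red marks Trbv29, at 2.70, shown as a description; blue marks the other V genes with an adjusted p under 0.05 and grey those without.

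Non-productive rearrangements, which took no part in the choice of the gene, were compared between tumor 1 and the TdLN. Trbv29 made up 1.51%, 3.21%, 0.559%, 2.20% and 2.69% of the unique non-productive rearrangements of tumor 1 in mice 1 to 5. In the TdLN it made up 2.58%, 3.21%, 3.10%, 2.46% and 2.07%. The ranges overlapped, and the means of 2.03% ± 1.04 and 2.68% ± 0.470 did not pass the test (exact permutation p = 0.262, adjusted p = 0.500 over 21 V genes). None of the 21 V genes passed this exact permutation test (0%), and 3 had an unadjusted p under 0.05.

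By templates, the non-productive Trbv29 share lay mostly in 1 out-of-frame clone in some tumor samples. The largest clone held 97.7% of these templates in tumor 1 of mouse 1 and 94.1% in that of mouse 4, but 30% (3 of 10) in that of mouse 5. In tumor 1 of mouse 1 Trbv29 ranked first among the V genes, with 17.4% of 748 non-productive templates, and 127 of its 130 templates belonged to 1 rearrangement with Trbj2-1. The same rearrangement was found again in that mouse, with 49 templates in tumor 2 and 9 in the TdLN, and in tumor 2 of mouse 2 with 16. In tumor 1 of mouse 4 a Trbj1-3 rearrangement held 143 of 152 Trbv29 non-productive templates. It had 11 templates in tumor 2 of that mouse, a single one in its TdLN and 3 in tumor 1 of mouse 5. Mouse 2 carried another Trbj2-1 rearrangement, with 40 TdLN, 36 tumor 1 and 16 tumor 2 templates, and tumor 2 of mouse 1 held 2. These 3 are shown because they outnumber every productive Trbv29 clone of their tumor 1 sample, although they code for no receptor. Capitals mark the CDR3 region as far as the read reaches.

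Out-of-frame Trbj2-1, mouse 1: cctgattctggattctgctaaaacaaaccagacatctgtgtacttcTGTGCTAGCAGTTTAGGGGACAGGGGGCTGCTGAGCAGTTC
Out-of-frame Trbj1-3, mouse 4: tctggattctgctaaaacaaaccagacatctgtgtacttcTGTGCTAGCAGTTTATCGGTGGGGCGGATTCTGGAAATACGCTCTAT
Out-of-frame Trbj2-1, mouse 2: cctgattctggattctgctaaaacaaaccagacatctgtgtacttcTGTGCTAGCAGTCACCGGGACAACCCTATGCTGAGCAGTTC

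In the first of them the whole Trbd1 gene, gggacagggggc, can be read between the V and J parts. The V part of the Trbj1-3 rearrangement runs untrimmed to the last base of the exon, chr6:41271825-41271881.

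The largest productive Trbv29 clone of each tumor 1 sample was followed through the other samples. In mouse 1 it used Trbj2-7, and its 24 templates were 20 from tumor 1, 3 from the TdLN and 1 from tumor 2. In mouse 2 it also used Trbj2-7, with 28 templates in tumor 1 and 6 in tumor 2, and was not found in the TdLN (0 of 3253 productive templates, which allows a share of up to 0.0922%). These 2 rearrangements code for the same CDR3 of 12 codons and differ by 1 base, G72A counted from 1 at the 5′ end, and neither was found in the mouse of the other. No other V gene carried this CDR3 in any sample.

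Trbj2-7, tumor 1 of mouse 1: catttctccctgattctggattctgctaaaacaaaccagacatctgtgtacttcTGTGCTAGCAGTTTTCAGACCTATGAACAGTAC
Trbj2-7, tumor 1 of mouse 2: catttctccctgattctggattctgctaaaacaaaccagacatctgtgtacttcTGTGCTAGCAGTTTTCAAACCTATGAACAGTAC

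Both have a V part at chr6:41271811-41271878, trimmed by 3 bases, and a Trbj2-7 part at chr6:41543812-41543825, with 5 bases between them. In all, 21 of 799 Trbv29 CDR3s (2.63%) were found in 2 or more mice, against 3.63% of those with other V genes. With error-like variants kept, 12 of 799 Trbv29 CDR3s were made in different mice by different rearrangements, against 348 of 15166 with other V genes. Leaving out error-like variants, 8 were made in 2 mice by rearrangements that differ by at most 4 bases. The 12-codon CDR3 above was the only one of those found in tumors of both mice. No such counts within 4 bases are given here for other V genes. A Trbj2-5 and a Trbj2-1 CDR3, whose rearrangements differ by 21 and 18 bases, were also found in tumors of mice 1 and 2. In each, 1 rearrangement that was itself found in both mice held most templates (38 of 39 and 9 of 10).

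In mouse 5 the leading tumor 1 clone had 70 of the 112 Trbv29 templates and was found in no other sample. It keeps the whole germline end of Trbv29 and joins it to Trbj2-7 with 7 bases between. In mouse 3 the leading tumor 1 clone, with Trbj1-1, had 5 templates there and more in the TdLN, 10. In mouse 4 the leading clone also used Trbj1-1, with 6 templates in tumor 1 and 1 in tumor 1 of mouse 5.

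Trbj2-7, tumor 1 of mouse 5: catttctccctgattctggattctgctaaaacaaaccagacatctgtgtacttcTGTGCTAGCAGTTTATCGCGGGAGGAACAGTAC
Trbj1-1, tumor 1 of mouse 3: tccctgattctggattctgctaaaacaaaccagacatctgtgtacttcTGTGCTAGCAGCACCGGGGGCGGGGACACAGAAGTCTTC
Trbj1-1, tumor 1 of mouse 4: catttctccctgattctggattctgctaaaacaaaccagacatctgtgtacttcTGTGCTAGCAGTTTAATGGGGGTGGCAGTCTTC

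In tumor 2 the leading clones of mice 1, 2, 4 and 5 had 8, 8, 1 and 4 templates. In mouse 3 a Trbj2-1 clone without N bases had 62 of 68 Trbv29 templates, and the same rearrangement had 1 template in tumor 2 of mouse 1 and 2 in tumor 2 of mouse 2. It was 1 of 2 productive Trbv29 rearrangements found in 3 mice. The other used Trbj1-4, with 4 templates in all, 1 each in tumor 1 of mouse 2 and in tumor 2 of mice 1, 2 and 3. The leading tumor 2 clone of mouse 2, with Trbj2-5, was found in all 3 tissues, with 18 templates in tumor 1 and 8 each in tumor 2 and the TdLN, and had 4 in tumor 2 of mouse 1.

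Trbj2-1, tumor 2 of mouse 3: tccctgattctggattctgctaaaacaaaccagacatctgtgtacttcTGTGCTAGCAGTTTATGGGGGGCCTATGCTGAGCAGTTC
Trbj2-5, tumor 2 of mouse 2: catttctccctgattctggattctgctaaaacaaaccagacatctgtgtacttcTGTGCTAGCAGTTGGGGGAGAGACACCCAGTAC

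A pair of clones of mouse 1 was found in all its tissues and in 1 other mouse. A Trbj2-1 clone of mouse 1 had 13 TdLN, 12 tumor 1 and 3 tumor 2 templates, and 2 more came from tumor 2 of mouse 2. A Trbj2-4 clone of mouse 1 had 4, 14 and 6 templates in these tissues, and 1 more came from tumor 2 of mouse 2. Of the 14 Trbv29 rearrangements found in 2 or more mice (1.64% of 852, against 2.09% for other V genes), 6 were in mice 1 and 2, 5 in mice 4 and 5, 2 in mice 1, 2 and 3, and 1 in mice 3 and 4.

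The leading Trbv29 clones of the TdLN were mostly found in no tumor, as were most node TCRs of any V gene. On average 3.49% of Trbv29 and 5.18% of other unique TdLN TCRs were found in a tumor. Leading node clones of other V genes are not given here for comparison. In mouse 1 a Trbj1-5 clone with 30 templates was found in the TdLN only, and so were those of mouse 2 (Trbj1-3, 9 templates), mouse 3 (Trbj1-5, 12 templates) and mouse 5 (Trbj1-5, 10 templates). The leading TdLN clone of mouse 4 (Trbj2-2, 4 templates) had 1 template in its tumor 1.

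Trbj1-5, TdLN of mouse 1: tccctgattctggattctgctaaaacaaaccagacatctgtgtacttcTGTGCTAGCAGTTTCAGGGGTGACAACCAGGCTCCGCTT

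Sharing between node and tumor was then compared with that of all other V genes. In mice 1 to 5, 6 of 10, 5 of 13, 1 of 3, 2 of 12 and 2 of 17 unique Trbv29 TCRs of tumor 1 were also found in the TdLN of the same mouse. The mean overlap was 32.0% ± 19.2 for Trbv29 and 33.1% ± 15.7 for the other V genes (two-sided exact permutation test, p = 0.937, adjusted p = 0.937 over 8 tests). Tumor 2 lay on the flank opposite to this node. For tumor 2 the counts were 4 of 16, 4 of 17, 0 of 4, 0 of 1 and 2 of 30, with a mean of 11.0% ± 12.4 for Trbv29 and 15.2% ± 11.0 for the others (exact permutation p = 0.603, adjusted p = 0.937). The tumor samples held 1 to 30 Trbv29 TCRs each. By templates, 45.7% ± 36.7 of Trbv29 and 73.0% ± 26.9 of other tumor 1 TCRs were in clones also found in the TdLN, lower for Trbv29 in 5 of 5 mice. Without rearrangements of another mouse the values were 39.5% ± 36.7 and 51.1% ± 19.1, lower in 3 of 5 mice.

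Seen from the node, 7 of 81, 5 of 96, 1 of 81, 2 of 275 and 4 of 241 Trbv29 TCRs were found in a tumor of the same mouse. The mean was 3.49% ± 3.38 for Trbv29 and 5.18% ± 3.68 for the other V genes. These shared TCRs held 16.8%, 10.2%, 6.25%, 1.35% and 1.10% of the Trbv29 templates of the TdLN in mice 1 to 5, against 46.2%, 23.7%, 30%, 1.39% and 4.44% for the other V genes. The Trbv29 value was lower in each of the 5 mice, by little in mouse 4. Without rearrangements of another mouse the means were 4.26% ± 3.39 for Trbv29 and 11.0% ± 10.9 for the others, lower in 4 of 5 mice, against 7.13% ± 6.57 and 21.1% ± 18.6 with them. Of all 55 Trbv29 TCRs of tumor 1, 16 (29.1%) were in the TdLN, 10 in tumor 2 and 7 in both, and 36 were in tumor 1 alone. Of the 1366 tumor 1 TCRs with other V genes, 411 (30.1%) were in the TdLN, 264 in tumor 2 and 165 in both, and 856 were in tumor 1 alone.

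The junctions of Trbv29 differed from those of other V genes in which bases were trimmed and which D gene was used. These measures were chosen after their values were seen, and the tests below were adjusted over 4 such comparisons. The p values describe a separation already seen, and 0.00794 is the smallest that 5 against 5 values allow. Both values of a mouse came from the same sample, and the exact permutation test ignores that pairing. A sign-flip test, which keeps it, cannot go below 0.0625 with 5 mice. Other junction measures that were calculated, such as trimming of the J end, are not counted in the adjustment. In the TdLN a mean of 4.02, 4.22, 4.16, 3.93 and 3.59 bases were trimmed from the V end of productive Trbv29 TCRs in mice 1 to 5, and 2.64, 2.67, 2.70, 2.43 and 2.45 from other V genes. The ranges were apart, with means of 3.99 ± 0.246 and 2.58 ± 0.127 (exact permutation p = 0.00794, adjusted p = 0.00794, higher in 5 of 5 mice). Weighted by templates the difference was 1.05 bases and did not pass (exact permutation, adjusted p = 0.0952). Out of frame the means were 4.37 ± 0.580 and 3.05 ± 0.262 (exact permutation, adjusted p = 0.00794). The untrimmed end was kept by 10.8% ± 3.14 of productive Trbv29 TCRs and by 23.5% ± 2.50 of the others. Among the 20 V genes, only Trbv4 (4.61 ± 0.0581) and, by a small margin, Trbv15 had a higher mean in productive rearrangements, and only Trbv15 (4.89 ± 0.862) out of frame.

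Trbd1 lies before the Trbj1 genes and Trbd2 between the Trbj1 and Trbj2 genes, so that a Trbj2 join can hold either D gene. Among TdLN rearrangements with an assigned D gene, Trbd1 made up 78.1%, 75.6%, 67.7%, 71.5% and 80.6% of productive Trbv29 TCRs in mice 1 to 5. For the other V genes it made up 52.1%, 51.3%, 48.8%, 53.3% and 52.6%. The groups were far apart, with means of 74.7% ± 5.14 and 51.6% ± 1.75 (exact permutation p = 0.00794, adjusted p = 0.00794). Out-of-frame rearrangements gave 71.0% ± 7.57 and 43.4% ± 3.92 (exact permutation, adjusted p = 0.00794). The mean of Trbv29 was the highest of the 20 V genes in both classes, followed by Trbv20 with 68.1% ± 6.56 and 64.3% ± 6.86. Among Trbj2 joins alone the difference was 34.0 percentage points in productive and 32.7 in out-of-frame rearrangements. With the mouse as a replicate block the adjusted p of these D gene and trimming comparisons was 0.0625, the smallest that 5 mice allow.

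The D gene was also read from the letters, apart from the provider's assignment. Trbd1 is gggacagggggc and Trbd2 is gggactgggggggc, so the words acagg and actgg tell them apart. Each was searched in the sequenced strand only, from a fixed point inside the CDR3 to the start of the J gene of Trbj2 joins. Retained V bases past that point were part of the search. Of 471 productive Trbv29 joins in the TdLN, 158 held 1 of these words and not the other, 114 of them the Trbd1 word. The Trbd1 word made up 72.8% ± 5.05 of these Trbv29 joins (66.7% to 78.3% over the 5 mice) and 29.4% ± 0.982 of the 4594 such joins with other V genes. Out of frame the values were 72.4% ± 16.8 (55.6% to 100%, 37 joins) and 24.5% ± 3.42 (2800 joins). A word match is no D gene assignment, and joins with a shorter D remnant are not counted.

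**Figure D4:**
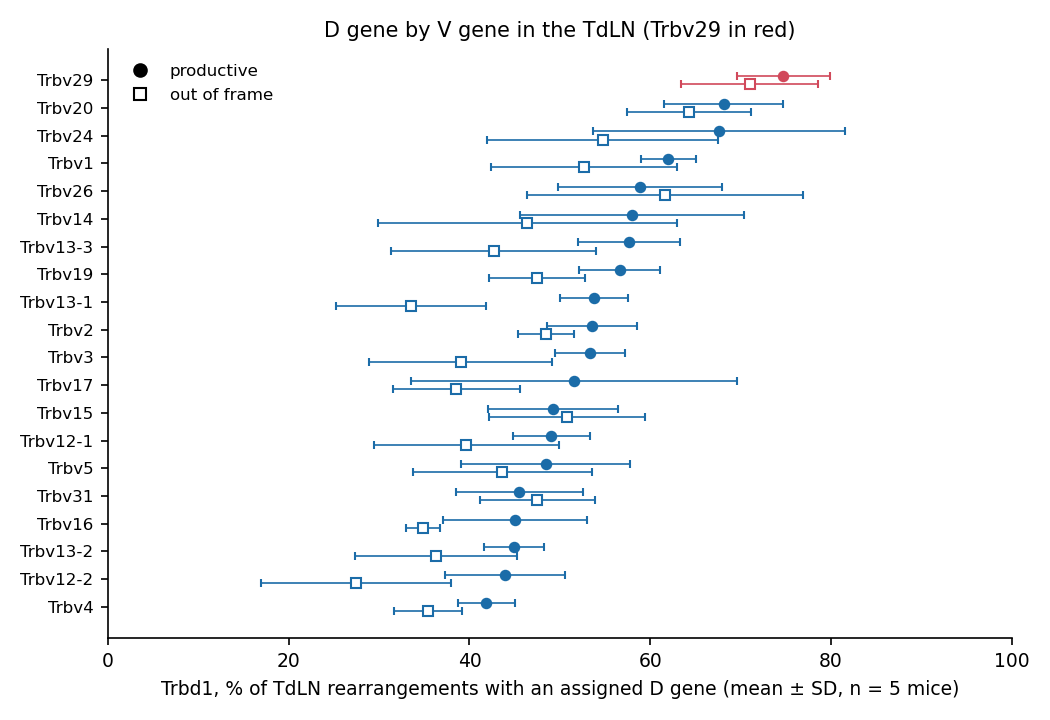
Percentage of TdLN rearrangements with an assigned D gene that carry Trbd1, for 20 V genes (mean ± SD of 5 mice). Filled circles are productive and open squares out-of-frame rearrangements; Trbv29, in red, is highest in both, at 74.7% and 71.0%.

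CDR3 length, N bases and J genes were compared in the same TdLN samples. The mean CDR3 of Trbv29 was 40.6, 41.0, 40.7, 40.8 and 41.4 nucleotides in mice 1 to 5, and that of other V genes 42.5, 42.2, 42.2, 41.9 and 41.9. Trbv29 was shorter in 5 of 5 mice, by 1.23 nucleotides on average (40.9 ± 0.317 against 42.1 ± 0.264). The exact permutation p was 0.00794, but the difference did not pass after adjustment over the 8 tests (adjusted p = 0.0635). The difference was -1.53 nucleotides in mice 1 to 3 and -0.781 in mice 4 and 5, and -0.762 weighted by templates (exact permutation, adjusted p = 0.508). CDR3s of 36 nucleotides made up 17.7% ± 4.22 of Trbv29 and 9.34% ± 0.872 of other TCRs, and those of 48 nucleotides 5.20% ± 0.361 and 10.8% ± 1.33. N insertions averaged 3.69 ± 0.363 and 3.59 ± 0.305 bases (exact permutation, adjusted p = 0.937).

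**Figure D5:**
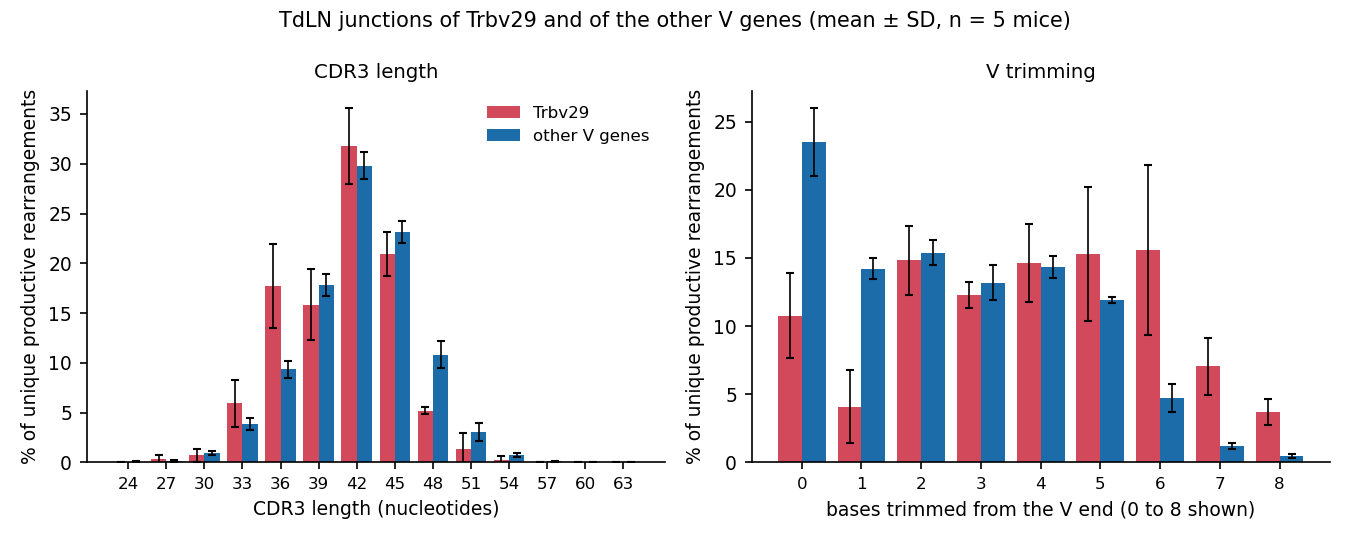
CDR3 length in nucleotides (left) and bases trimmed from the V end (right) of unique productive TdLN TCRs, as the percentage of Trbv29 (red) and of other V genes (blue), mean ± SD of 5 mice. Trbv29 exceeds the others at 36 nucleotides and at 6 to 8 trimmed bases, and lies below them at 0 and 1 trimmed bases.

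All 12 tested J genes were joined to Trbv29 in the TdLN, and none passed the J gene test (0%; two-sided exact permutation test, 0 of 12 with an unadjusted p under 0.05). The largest differences were those of Trbj2-7, with 18.5% ± 4.56 of Trbv29 against 22.0% ± 0.762 of other TCRs, Trbj1-1, with 13.0% ± 4.74 against 9.82% ± 0.565, and Trbj2-2, with 7.12% ± 3.92 against 5.24% ± 0.726. Together the Trbj2 genes made up 63.0% ± 4.64 and 67.6% ± 1.40, lower for Trbv29 in 5 of 5 mice (exact permutation p = 0.0714, adjusted p = 0.286). Weighted by templates the difference was -11.4 points in place of -4.59 (exact permutation, adjusted p = 0.0635), and that of Trbj2-7 was -10.6 in place of -3.55.

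Within Trbv29, tumor 1 and the TdLN were compared on the same 3 measures, and none differed beyond the spread between mice. Mean CDR3 length was 40.8 ± 1.65 nucleotides in tumor 1 and 40.9 ± 0.317 in the TdLN (exact permutation, adjusted p = 0.937). N insertions were 4.91 ± 3.27 and 3.69 ± 0.363 bases, and Trbj2 joins made up 66.5% ± 9.89 and 63.0% ± 4.64 (both adjusted p = 0.937, exact permutation). Trbd1 made up 88.9%, 66.7%, 100%, 77.8% and 53.3% of Trbv29 TCRs with a D gene in tumor 1 of mice 1 to 5, each above the 45.5% to 52.2% of other V genes, with 3 to 17 Trbv29 TCRs per sample and without a test. In tumor 2 the Trbd1 shares of Trbv29 were 57.1%, 75%, 33.3%, 100% and 64.7%, and those of other V genes 50%, 43.6%, 63.4%, 54.8% and 47.8%, so that mouse 3 was lower for Trbv29. In tumor 2, described only because the sample of mouse 4 held 1 Trbv29 TCR, mean CDR3 length was 41.5 ± 1.03 nucleotides and N insertions were 2.39 ± 1.79 bases.

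Across the 15 samples the unique productive share of Trbv29 varied most like that of Trbv13-2 (Pearson r = 0.587, Spearman rho = 0.564), Trbv14 (r = 0.422, rho = 0.45) and Trbv20 (r = 0.341, rho = 0.375). These correlations describe 15 samples that share mice, tissues and depth, and shares of 1 repertoire sum to a fixed total.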

How the data were processed

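The 15 TCRβ repertoires came from flow-sorted T cells of 5 mice. In the deposited files, counts give whole templates for each 87-base rearrangement, as estimated by the immunoSEQ provider and equal to the estimated genomes in all 29992 rows; they were used without normalization. The provider also corrected reads and assigned V, D and J genes, trimming, N bases and frame; tool versions are not given in the sources used here, and the submitters' processing notes name the build mm10. V and J names were matched to GENCODE M21 symbols (35 of 35 V genes) and clones to the GRCm38 genome; 16 rearrangements without a V gene were left out of shares.

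Trbv29, its measures and lists were chosen with earlier results of these data known. Groups came from the labels, and samples of 1 number were taken as 1 mouse, as the study describes paired TdLN and tumor samples. As a check, deviations of V gene shares from the group means correlated between -0.0641 and 0.298 for TdLN and tumor 1 of the same number. The range was -0.366 to 0.367 for TdLN and tumor 2, and -0.303 to 0.511 for tumor 1 and tumor 2. With values of both signs in each, the check cannot settle that 1 number is 1 mouse. Two-sided exact permutation tests compared means of 5 against 5 values (smallest p 0.00794) and ignored that the values were paired by mouse. Benjamini-Hochberg adjustment was over 8 scalar tests, or over the V or J genes whose mean share reached 1%, called under 0.05. Nothing in the labels says whether libraries were prepared together. Mice 1 to 3 and mice 4 and 5 were also taken alone, and their TdLN samples differed in depth. Text names Trbv29, the 3 V genes most correlated with it, the 3 J genes with the largest difference, the largest productive clone of each sample and 5 clones found in most mice; the out-of-frame clones, convergent pair and V genes of the frame comparison were named, and the D gene and trimming comparisons and the clone-size and template-sharing values without rearrangements of another mouse added, after values were seen. Error-like rearrangements share their last 40 bases with one of at least 50 times their templates in the same sample. Alternatives were each mouse left out, the mouse as a block, at least 2 templates, template weights, removal of rearrangements of another mouse or error-like ones, distinct CDR3s, TdLN downsampling (100 draws) and other minimum shares; the tests were checked on simulated data. Calculations used scipy 1.17.1 with numpy 2.4.6 and pandas 2.3.3 under Python 3.11.15, and figures matplotlib 3.10.9.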

Additional observations from a re-analysis of the deposited data

Results flagged for a closer look

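By Dixon's test at the 95% level, which marks about 1 in 20 groups of 5 by chance, 4 of the 41 groups of 5 samples examined held a value apart from the others. In tumor 2 of mouse 3, a productive Trbv29 TCR had a mean of 17.0 templates, against 1 to 2.31 in the other mice, and 62 of its 68 templates belonged to 1 clone. Without rearrangements found in another mouse this mean was 2.5, against 1 to 1.7 in the other mice. In the TdLN of mouse 2, Trbv29 held 4.95% of non-productive templates, against 1.92% to 2.55%, with 40 of 82 templates in 1 out-of-frame clone. In tumor 1 of mouse 3, Trbv29 TCRs had a mean of 10.7 N insertions, against 2.77 to 4.35, and 10.3 bases trimmed from the V end, against 2.80 to 4, both over only 3 TCRs.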

How the results depend on the processing

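Each of 24 results was recomputed under up to 15 alternatives. The Trbv29 excess of productive over out-of-frame share, a description, kept its direction throughout, at 2.54 to 2.84 points with each mouse left out. This excess was 2.70 points with the replicate block, 2.08 with at least 2 templates and 1.64 weighted by templates. No call is given for Trbv29 in any of these runs, since its productive TdLN share chose the gene. With each mouse left out, 4 against 4 values allow no exact permutation p under 0.0286. The number of V genes called was then 0 to 12 (0 without mouse 2, 4 or 5). It was 0 with the replicate block and 7 by templates. In the same block the Trbd1 share differences (23.1 points in frame, 27.6 out of frame) and the trimming differences (1.41 and 1.32 bases) missed the threshold, which 5 mice cannot pass, and in-frame trimming by templates (1.05 bases) missed it too. The template share of Trbv29 in tumor 1 minus the TdLN went from -3.23 points to -1.22 without rearrangements of another mouse. By templates, 6 V genes passed the non-productive comparison of tumor 1 with the TdLN, and the Trbv29 difference turned to 2.32 points. Differences that had not passed a test changed sign under several alternatives. Leaving out each mouse in turn gave -0.689 to 0.450 nucleotides for CDR3 length in tumor 1 against the TdLN, -0.288 to 1.82 for N insertions, -0.487 to 6.68 points for the Trbj2 share and -5.10 to 2.72 points for the overlap of tumor 1. Distinct CDR3s gave 0.00126 nucleotides for that CDR3 length. With at least 2 templates the Trbj2 share gave -6.30 points, the overlap of tumor 1 gave 7.22 and that of tumor 2 gave 0.0786, and without rearrangements of another mouse the overlap of tumor 1 gave 0.378. In mice 1 to 3 alone CDR3 length in tumor 1 gave 0.393 and the overlap of tumor 1 gave 0.495, and in mice 4 and 5 alone the non-productive share gave 0.181. The TdLN Trbj2 difference was -7.91 points in mice 4 and 5 alone. In all, 280 of 312 recomputed values kept direction and side of the threshold, or moved by less than 1 SD, and the causes of the changes were not tested. Few Trbv29 TCRs per tumor (1 to 30) limit the precision of every tumor value.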
